A study of Mus musculus with 6 samples.

Results

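*Clec2d*, the gene of the lectin-like ligand Clr-b, was set beside its relative *Clec2l* in RNA sequencing of adult spinal cord from mice that lack *Sox2* in astrocytes and from control mice. These are 2 of the 35275 genes in the deposited tables. *Clec2d* was chosen because it was much higher in the *Sox2* cKO libraries, so its levels and fold change are a description with no test. *Clec2l* was chosen by its name. The 3 *Sox2* cKO mice carried *mGfap-Cre*, a transgene in which the *Gfap* promoter of the mouse drives Cre and which acts in most astrocytes, with both alleles of *Sox2* floxed. The 3 Ctrl mice are labelled mGfap-Cre:Sox2+/+, while the methods of the study name *Sox2* fl/fl littermates without Cre, so whether the controls carried the Cre transgene cannot be told. All 6 mice were C57BL/6, given as postnatal day 90 in the sample labels and as day 80 in the extraction protocol. By the methods of the study each group held 2 females and 1 male. Whole spinal cord was used, so fewer cells of a type and less RNA per cell cannot be told apart. The tables number the libraries 1 to 6. Libraries 2, 4 and 6 were Ctrl and libraries 1, 3 and 5 were *Sox2* cKO. The tables do not tie a library to a replicate number of the labels, and p-values measure the spread between these libraries.

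Clr-b is a type II membrane protein of the C-type lectin-like fold. Its known partner is the inhibitory receptor NKR-P1B, encoded by *Klrb1b*, on natural killer (NK) cells, and a cell that keeps Clr-b on its surface is spared by NK cells that carry the receptor. CLEC2D is also known to bind histones released by dying cells. The genes of Clr-b, of its relatives and of the NKR-P1 receptors are interleaved in the NK gene complex of chromosome 6. *Clec2l* lies outside that complex on the same chromosome, and its protein is known as the brain-associated C-type lectin.

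In GRCm38, *Clec2d* (ENSMUSG00000030157) occupied chr6:129180615-129186534 and *Clec2l* (ENSMUSG00000079598) chr6:38663069-38680864, both on the plus strand and both protein-coding. Both genes had 5 exons in GENCODE M21. Their coding sequences had 621 and 633 bases, or 207 and 211 codons with the stop codon. In a global alignment the bases of the 2 coding sequences that were not opposite a gap were 58.6% identical. This was less than the identity of *Clec2d* to the other Clr genes of the complex, which was 89.0% for *Clec2g*, 85.2% for *Clec2i*, 76.3% for *Clec2e* and 75.2% for *Clec2h*. It was near the identity of *Clec2d* to the genes of the receptors, 59.6% to 61.8%, and to *Cd69*, 56.1%. By this identity *Clec2l* was no nearer to *Clec2d* than the NKR-P1 genes were. The level between unrelated sequences was not measured, so differences this small do not rank kinship.

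The 250 bases before each start site are shown because the promoters of the pair differ in base composition and in the motifs they hold. They are RefSeq sequences of GRCm38.p6, plus strand, 5′ to 3′. Capitals mark CG dinucleotides (CpG) and ACAAAG, a hexamer bound by SOX proteins.
Clec2d, chr6:129180365-129180614: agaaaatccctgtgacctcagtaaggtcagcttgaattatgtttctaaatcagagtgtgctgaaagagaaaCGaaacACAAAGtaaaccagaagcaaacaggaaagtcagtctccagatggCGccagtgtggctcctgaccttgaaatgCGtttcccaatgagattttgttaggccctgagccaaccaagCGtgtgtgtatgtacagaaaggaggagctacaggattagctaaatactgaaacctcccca
Clec2l, chr6:38662819-38663068: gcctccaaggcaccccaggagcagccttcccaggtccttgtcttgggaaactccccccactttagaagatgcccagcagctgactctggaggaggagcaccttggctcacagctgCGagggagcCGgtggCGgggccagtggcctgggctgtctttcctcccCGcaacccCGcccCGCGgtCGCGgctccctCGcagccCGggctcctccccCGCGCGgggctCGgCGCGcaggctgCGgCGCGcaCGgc

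The *Clec2d* promoter had a GC content of 44.8% and 4 CpG dinucleotides. The *Clec2l* promoter had 72.4% and 21 CpG, against medians of 52.4% and 6 over 32851 RefSeq promoters of the same length. ACAAAG was searched on both strands and stood once in the *Clec2d* promoter, on the plus strand at position -173 from the start site, and in 16.5% of all promoters. TATAAA, the TATA box (12.4% of promoters), was not found in the *Clec2d* window. Neither motif stood in the *Clec2l* window. A match is a description of the letters and not a site shown to be bound.

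*Sox2*, the deleted gene, fell in the *Sox2* cKO libraries, as the labels require. Its level was 19.9, 14.8 and 29.5 CPM (counts scaled to library size) in Ctrl libraries 2, 4 and 6 and 3.16, 2.69 and 2.98 CPM in *Sox2* cKO libraries 1, 3 and 5, a log2 fold change of -2.86 (SE 0.24, adjusted p = 0.00096 in edgeR's quasi-likelihood test, n = 3 per group). Libraries held between 21507911 and 28392184 counts. Of the markers of spinal cord position, the HOX genes *Hoxb8* and *Hoxc8* were measured at 139 to 256 CPM in every library. Oligodendrocyte marker genes summed to 31887 to 35671 CPM in Ctrl and 32147 to 34717 CPM in *Sox2* cKO.

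*Clec2d* was higher in every *Sox2* cKO library than in every Ctrl library. It was counted 62, 48 and 30 times in Ctrl libraries 2, 4 and 6, or 2.78, 1.996 and 1.45 CPM after TMM normalization. It was counted 287, 296 and 195 times in *Sox2* cKO libraries 1, 3 and 5, or 12.6, 10.1 and 7.37 CPM. Libraries 1 and 3 were high and library 5 was the lowest of the group, yet library 5 was still 2.65 times the highest Ctrl library. The means were 2.08 ± 0.670 CPM in Ctrl and 10.02 ± 2.62 CPM in *Sox2* cKO (SD, n = 3), and the fitted log2 fold change was 2.26 (SE 0.26), or 4.798-fold. Within a group the highest library was 1.92 times the lowest in Ctrl and 1.71 times in *Sox2* cKO.

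*Clec2l* was the more abundant of the pair in both groups and rose by less. It was counted 635, 631 and 507 times in Ctrl libraries 2, 4 and 6 (28.5, 26.2 and 24.5 CPM) and 916, 1123 and 1014 times in *Sox2* cKO libraries 1, 3 and 5 (40.2, 38.3 and 38.3 CPM). The groups did not overlap, and the lowest *Sox2* cKO library was 1.34 times the highest Ctrl library. The means were 26.4 ± 2.01 and 38.9 ± 1.11 CPM (SD, n = 3). The log2 fold change was 0.56 (SE 0.09), or 1.47-fold, with an adjusted p of 0.012 in edgeR's test. Over all genes, 12.2% were called higher at an adjusted p below 0.05, 12.4% lower and 24.6% in either direction, and 22.6% had groups that did not overlap and were higher in *Sox2* cKO (22.1% did not overlap and were lower). *Clec2l* was thus one of 1962 genes called higher among 16137 tested. Without Ctrl library 4 its adjusted p was 0.065 and without *Sox2* cKO library 1 it was 0.066, with log2 fold changes of 0.56 and 0.54.

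Levels of the 2 genes were compared per length, as FPKM, which divides counts by gene length and library size. *Clec2d* stood at 2.28, 1.58 and 1.13 FPKM in Ctrl libraries 2, 4 and 6 and at 11.0, 8.59 and 6.14 FPKM in *Sox2* cKO libraries 1, 3 and 5, with means of 1.66 ± 0.580 and 8.58 ± 2.43 FPKM (SD, n = 3). *Clec2l* stood at 19.8, 17.7 and 16.2 FPKM in Ctrl and at 29.8, 27.7 and 27.1 FPKM in *Sox2* cKO, with means of 17.9 ± 1.84 and 28.2 ± 1.4 FPKM. The ratio of *Clec2l* to *Clec2d* in FPKM was 8.70, 11.2 and 14.4 in the Ctrl libraries and 2.71, 3.22 and 4.42 in the *Sox2* cKO libraries. *Clec2l* was therefore above *Clec2d* in every library, by a smaller factor in each *Sox2* cKO library. Among genes with an FPKM above 0 in the same library, *Clec2d* lay at the 46.3, 43.1 and 39.2 percentile in Ctrl and at the 73.1, 68.8 and 62.9 percentile in *Sox2* cKO. *Clec2l* lay between the 81.8 and 83.9 percentile in Ctrl and between the 88.1 and 88.7 percentile in *Sox2* cKO.

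**Figure D1:**
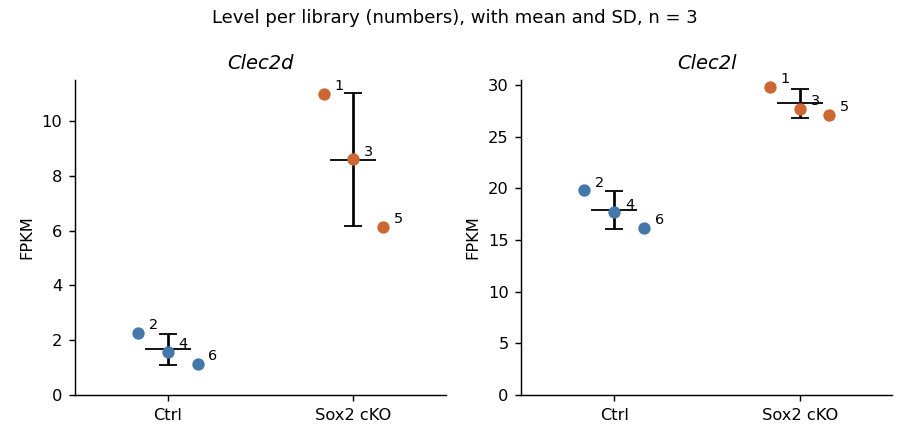
Level of *Clec2d* (left) and *Clec2l* (right) in FPKM (y axis, from 0) in each of 3 Ctrl and 3 *Sox2* cKO libraries (x axis). Points are libraries, marked with their numbers, and black bars are the mean and SD. *Clec2d* ran from 1.13 to 2.28 FPKM in Ctrl and from 6.14 to 11.0 FPKM in *Sox2* cKO, and *Clec2l* from 16.2 to 19.8 and from 27.1 to 29.8 FPKM.

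In the plot of levels by library the spread of *Clec2d* was wide and that of *Clec2l* narrow. The coefficient of variation of CPM was 32.3% in Ctrl and 26.1% in *Sox2* cKO for *Clec2d*, and 7.62% and 2.85% for *Clec2l*. In both groups the library with the highest *Clec2d* level (library 2 in Ctrl, library 1 in *Sox2* cKO) also had the highest *Clec2l* level.

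The other genes of the Clec2 family were absent or near the limit of detection. *Clec2e*, *Clec2f*, *Clec2g*, *Clec2i*, *Clec2j* and *Clec2m* had 0 counts in all 6 libraries. Over 145510537 counts in all, a count of 0 allows up to 0.0206 CPM, and 0.106 to 0.139 CPM in a single library (3 counts, counting error only). *Clec2h*, which encodes Clr-f, had 1, 4 and 3 counts in Ctrl and 0, 10 and 2 counts in *Sox2* cKO. *Cd69*, an early activation marker of lymphocytes that lies in the same cluster, had 0, 2 and 0 counts in Ctrl and 2, 0 and 1 in *Sox2* cKO. Of 10 genes of the family in the table, *Clec2d* and *Clec2l* alone had enough counts to be tested.

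The receptors were as scarce as the other ligands. *Klrb1b*, the receptor for Clr-b, had 0, 6 and 0 counts in Ctrl and 1, 0 and 3 in *Sox2* cKO. *Klrb1f*, whose known ligand is Clr-g of *Clec2i*, had 1, 0 and 4 counts in Ctrl and 1, 2 and 0 in *Sox2* cKO. *Klrb1c*, which encodes the NK1.1 antigen of C57BL/6 mice, had 0, 1 and 0 counts in Ctrl and 0 counts in each *Sox2* cKO library. *Klrb1a* had 1, 2 and 0 counts in Ctrl and 1, 3 and 1 in *Sox2* cKO, *Klrb1* had 0, 0 and 2 and then 0, 0 and 1, and the pseudogene *Klrb1-ps1* had 0 in all libraries. The 6 genes together had 17 counts in Ctrl and 13 in *Sox2* cKO, or 0.0897 to 0.374 CPM per Ctrl library and 0.132 to 0.189 CPM per *Sox2* cKO library. None was tested, and a difference of the receptors was not detectable at this depth.

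**Figure D2:**
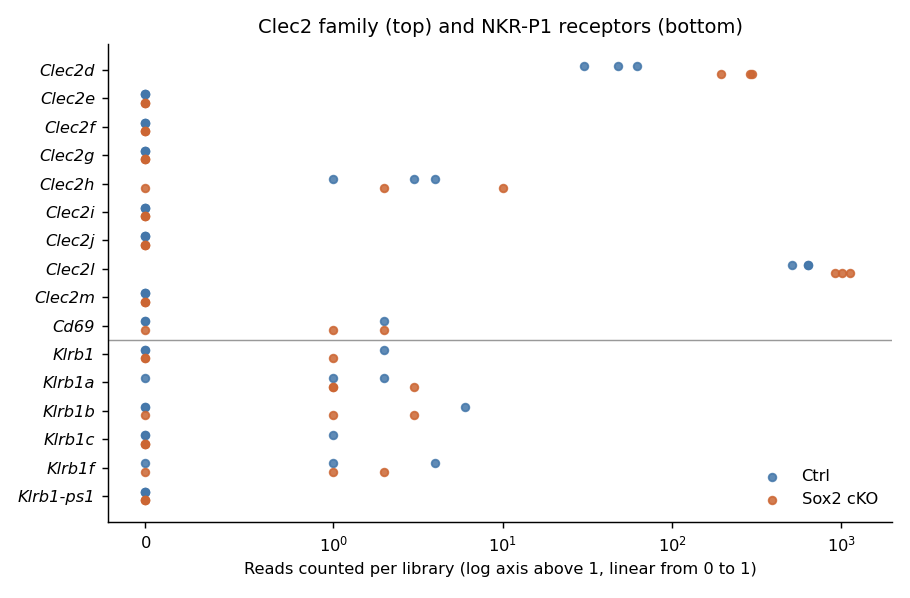
Reads counted per library (x axis, log scale above 1 and linear from 0 to 1) for the 10 genes of the Clec2 family and, under the line, 6 genes of NKR-P1 receptors. Points are libraries, 3 Ctrl and 3 *Sox2* cKO, and points at the same count lie on each other. *Clec2d* (30 to 296 counts) and *Clec2l* (507 to 1123) lie far to the right of the rest, none of which had more than 10 counts.

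Little of the *Clec2d* transcript was shared with other family members. Of the 1164 windows of 50 bases in its transcript, 23 (1.98%) also occurred in the transcript of another gene, *Clec2g* or *Clec2i*, both of which had 0 counts. The *Clec2l* transcript shared 0 of 1379 windows. Among the receptors the share was 27.2% for *Klrb1b*, 17.0% for *Klrb1c* and 9.92% for *Klrb1a*, and their low counts are uncertain for that reason as well. No annotated gene in the table overlapped *Clec2d* or *Clec2l* on either strand.

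Few genes around *Clec2d* were expressed enough to be tested. Within 250 kb of it, 17 genes were in the table, 7 of them with 0 counts in all libraries. Of these, 4 could be tested and 0 were called in edgeR's test, where 12.2% of all genes were called higher and 12.4% lower. Of the 4, 0 had an unadjusted p below 0.05 and 0 were called by DESeq2 or limma. Of the tested genes, *2310001H17Rik*, on the minus strand, lay 21878 bases after *Clec2d* (log2 fold change 0.73, adjusted p = 0.26). It was the nearest gene of the table on that side. The others were the pseudogene *BC064078* (-0.12, adjusted p = 0.83), the dendritic cell lectin *Clec9a* (-0.23, adjusted p = 0.75) and *Clec1a* (-0.20, adjusted p = 0.65). The nearest gene of the table before *Clec2d*, *Klrb1-ps1* at 51169 bases, had 0 counts. Within 250 kb of *Clec2l*, 9 genes were in the table and 7 were tested. *Klrg2*, the next gene before *Clec2l* at 25827 bases, had a log2 fold change of -0.11 (adjusted p = 0.72). *Hipk2*, a kinase gene and the next gene after it at 13526 bases, fell by 1.08 on the log2 scale (adjusted p = 0.012). *Fmc1* was the single gene of this window called higher, at 0.82 (adjusted p = 0.011). Of the 7 tested genes 1 was thus called higher and 1 lower, against 12.2% and 12.4% of all genes. *Fmc1* has 500 bases and *Hipk2* 7684 bases, and fold change moved with gene length over the whole table, as described next.

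Gene length moved with the fold change over the whole table, and both genes are short. The exon lengths behind the FPKM values were 1213 bases for *Clec2d* and 1428 bases for *Clec2l*, which put both in the shortest of 5 groups of tested genes (66 to 1708 bases). In that group of 3229 genes the median log2 fold change was 0.30 and 30.4% were called higher, against a median of 0.02 over all tested genes. In the longest group the median was -0.25 and 1.74% were called higher. After the trend with length was removed from every library separately, *Clec2l* had a log2 fold change of 0.30 (SE 0.07, adjusted p = 0.030 in edgeR) and *Clec2d* had 1.96 (SE 0.23). The value of *Clec2l* thus fell from 0.56 to 0.30, a change of over 1.5 times, while its groups at 27.5 to 29.8 CPM and 34.8 to 35.7 CPM still did not overlap. Corrected for length, *Clec2d* ran from 1.65 to 2.84 CPM in Ctrl and from 6.77 to 10.7 CPM in *Sox2* cKO. By the uncorrected log2 fold change *Clec2d* was 15th of 16137 tested genes and 12th of 3229 in its length group, and *Clec2l* was 1498th and 793rd. The ranks of *Clec2d* go with its choice for a large rise.

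**Figure D3:**
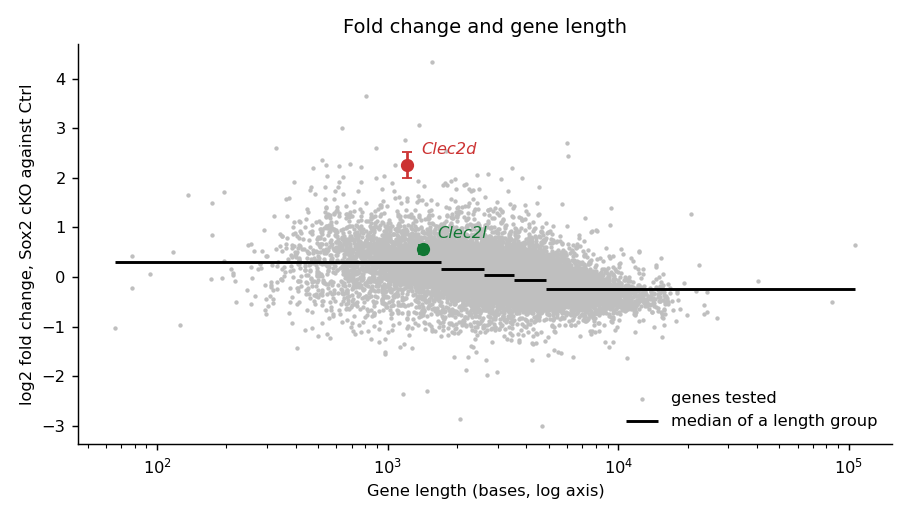
Fold change of *Sox2* cKO against Ctrl (y axis, log2) by gene length in bases (x axis, log scale) for the 16137 genes tested. Grey points are genes, black lines are the medians of 5 length groups, and bars on *Clec2d* and *Clec2l* are SE. The medians run from 0.30 in the shortest group to -0.25 in the longest, with *Clec2l* at 0.56 and *Clec2d* at 2.26.

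Just beside *Clec2d* in the order by fold change, among 3798 called genes with a mean count of at least 50, stood *S100a9* above (log2 fold change 2.36), a calcium-binding protein of neutrophils, and *Gm47283* below (1.99). *Clec2d* was the sixth in this order, a place that goes with its choice for a large rise and carries no test. *Gm47283* is annotated on chromosome Y, and the sex of each library is not given. The genes whose pattern over the 6 libraries was most like that of *Clec2d* were found by the root mean square difference of centred log2 CPM among 13322 genes. They were the noncoding RNA *Snhg20* (0.25), the interferon-induced gene *Ifi27l2a* (0.30), the noncoding RNA *Gm27032* (0.31), *Gm47283* (0.34) and *S100a9* (0.35). *Ifi27l2a* stood at 2.87, 2.79 and 1.69 CPM in Ctrl and 11.5, 7.27 and 6.27 CPM in *Sox2* cKO. Like *Clec2d* it was highest in library 1 and lowest in library 5 among the *Sox2* cKO libraries. *Snhg20* (30.5, 28.2 and 17.9 CPM) and *Gm27032* (8.48, 6.89 and 5.78 CPM) had this order too, while *Gm47283* and *S100a9* did not. A choice by likeness favours such an order. *Clec2l* had much nearer neighbours, with differences of 0.035 for *Cyb561d2*, 0.037 for *Ciao2b*, 0.040 for *Fxyd6*, 0.040 for *2310061I04Rik* and 0.041 for *Anks3*. These measures share the libraries and carry no test.

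Of the other lectin genes listed with the NK gene complex, *Klra2* alone was called. The list holds 29 lectin genes outside the Clec2 and NKR-P1 families, of which *Klrg2* lies beside *Clec2l* and not in the complex. Of these, 6 were tested and 1 was called higher in edgeR's test (12.2% of all genes were), with a median log2 fold change of -0.10. The called gene, *Klra2* of the Ly49 family, had 3, 0 and 2 counts in Ctrl and 12 in each *Sox2* cKO library (2.54, adjusted p = 0.024). *Klra2* passed the count filter only through the *Sox2* cKO libraries. Its place among the 6 tested genes and its call thus depend on its being high there, and they are a description. DESeq2 gave it no adjusted p, and it was too low to enter the limma fits or the fit with at least 10 counts in every library. Among 18 genes in the table for other ligands of NK receptors, 12 were tested and 2 rose. They were the class I genes *H2-T23* (0.64, adjusted p = 0.028, and 0.051 with the length correction), whose product Qa-1 is read by the CD94/NKG2 receptors, and *H2-D1* (0.57, adjusted p = 0.020), and the median of the list was 0.43. *H2-K1* stood at 0.41 (adjusted p = 0.069). The fold changes of these class I genes were near that of *Clec2l*.

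Markers of NK cells themselves were few in counts. *Ncr1*, which encodes the defining receptor NKp46, had 0 counts in 5 libraries and 3 in library 3, and *Gzmb* had 0 counts in Ctrl and 1, 3 and 0 in *Sox2* cKO. The 15 NK cell genes too low to be tested had at most 13 counts in any library, and together 22, 24 and 18 counts in Ctrl libraries 2, 4 and 6 (0.987, 0.998 and 0.869 CPM) and 46, 48 and 40 in *Sox2* cKO libraries 1, 3 and 5 (2.02, 1.64 and 1.51 CPM). The sum was thus higher in every *Sox2* cKO library, as *Clec2d* was, and *Prf1*, *Ccl5* and *Cd226* were the 3 of these genes whose groups did not overlap and were higher in *Sox2* cKO, against 1, *Xcl1*, that was lower (22.6% and 22.1% of all tested genes). The part of NK cells in the *Clec2d* level was not tested. Of the 17 NK cell genes 2 were tested, and the 1 that rose, *Tyrobp* (1.19, adjusted p = 0.022), encodes an adaptor that microglia and other myeloid cells also use. With the length correction the adjusted p of *Tyrobp* was 0.075. *Cd160* stood at 0.28 (adjusted p = 0.64). Of all genes tested, 12.2% were called higher. Of 20 T and B cell genes 4 were tested and 1 rose, *Ighm* of the immunoglobulin M heavy chain, at 0.53 (adjusted p = 0.025, and 0.155 with the length correction), while *Zap70* stood at 0.42 (adjusted p = 0.42).

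Neutrophil, microglia and interferon genes were set beside *Clec2d* library by library. Over all genes, 12.2% were called higher and 12.4% lower. In the shortest length group, which holds *Lcn2* and *S100a9* but not *Mmp8*, 30.4% were called higher. Of 14 neutrophil genes 10 were tested and 7 rose, with a median log2 fold change of 1.70, led by *Lcn2* (3.07), *S100a9* (2.36) and *Mmp8* (2.06). *Mmp8*, with 9, 6 and 3 counts in Ctrl and 24, 49 and 17 in *Sox2* cKO, passed the count filter only through the *Sox2* cKO libraries. *Lcn2* was not called with limma. Its level was 0.748 to 1.75 CPM in Ctrl and 17.6, 10.5 and 1.51 CPM in *Sox2* cKO libraries 1, 3 and 5. For *Lcn2*, library 5 thus lay within the Ctrl range. The sum of the neutrophil genes was 29.1 to 36.0 CPM in Ctrl and 107.9, 99.4 and 39.6 CPM in *Sox2* cKO libraries 1, 3 and 5. In library 5 the neutrophil sum was 39.6 CPM against at most 36.0 CPM in Ctrl, while *Clec2d* was at 7.37 CPM against at most 2.78 CPM. The 21 microglia and macrophage genes were all tested, and 4 rose, with a median of 0.33, led by *Pf4* (1.58), *C1qb* (0.75) and *Trem2* (0.74). None fell in edgeR's test, where 2 were lower at an unadjusted p below 0.05, while DESeq2 called 2 lower and limma 0. The call of *C1qb* was lost with DESeq2, limma and the length correction, that of *Trem2* with limma and that of *Pf4* with the length correction. In edgeR *Csf1r*, the receptor microglia need to survive, stood at -0.38 (adjusted p = 0.072). Their sum was 394 to 436 CPM in Ctrl and 561, 416 and 371 CPM in libraries 1, 3 and 5. Of 35 interferon response genes in the table, 33 were tested and 13 rose, with a median of 0.46. None fell in edgeR's test, and 1 was lower at an unadjusted p below 0.05 (0 called lower by DESeq2 and limma). *Ifi27l2a* (1.76), *Oas1a* (1.57) and *Isg15* (1.36) led them, while *Stat2*, which carries the interferon signal, stood at 0.05 (adjusted p = 0.76). The sum of the list was 170 to 200 CPM in Ctrl and 307, 246 and 214 CPM in libraries 1, 3 and 5. The order of these 3 libraries was that of *Clec2d* (highest in 1, lowest in 5), and the neutrophil and microglia sums had it too, while in Ctrl the interferon sum was highest in library 4 and *Clec2d* in library 2. The microglia sum of library 5 lay below every Ctrl library, where *Clec2d* was above them all. The part of neutrophils, of other myeloid cells and of interferon in the *Clec2d* level was not tested. Without Ctrl library 4 the counts of genes called higher in the neutrophil and interferon lists were 0 and 0, without *Sox2* cKO library 1 again 0 and 0, without Ctrl library 6 they were 1 and 5, and without *Sox2* cKO library 3 they were 2 and 5.

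Toll-like receptors and their signalling genes, of which only some of the receptors sense released nuclear material, had a median of 0.07. Of 17 such genes 12 were tested. Of these 0 were called higher (0 at an unadjusted p below 0.05, and 0 by DESeq2 or limma), and *Tlr3*, a receptor for double-stranded RNA, fell by 0.43 on the log2 scale (adjusted p = 0.019 in edgeR). Resident cell types gave a mixed picture beside the rise of *Clec2l*. For comparison, 12.2% of all genes were called higher and 12.4% lower. Of 20 neuron genes 4 rose and 2 fell (median -0.03), with *Uchl1* at 0.76 and the neurofilament gene *Nefh* at -0.45. Of 10 astrocyte genes 1 rose, *S100b* at 0.71, and 5 fell, *Gfap* at -1.11 and the glutamate transporter *Slc1a2* at -0.62 among them (median -0.33). With the length correction *S100b* and *Slc1a2* were not called (adjusted p = 0.062 and 0.093). Of 8 oligodendrocyte genes 0 were called by edgeR, where 2 were lower at an unadjusted p below 0.05, while DESeq2 called 3 lower and limma called 0. Of 9 tested genes of spinal cord position 1 rose, *Hoxb6* at 0.44 (adjusted p = 0.101 with the length correction in edgeR).

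**Figure D4:**
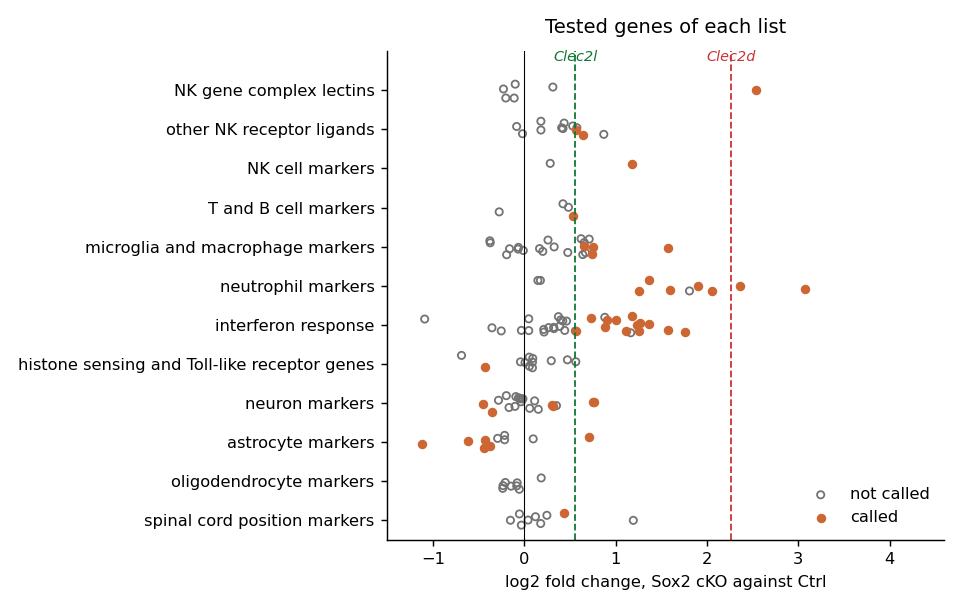
Log2 fold change of *Sox2* cKO against Ctrl (x axis) for each tested gene of 12 gene lists (y axis). Filled points were called at an adjusted p below 0.05 in edgeR's test, open points were not, and dashed lines mark *Clec2l* at 0.56 and *Clec2d* at 2.26. The 3 points to the right of the *Clec2d* line are *Klra2*, *S100a9* and *Lcn2*.

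The direction of *Clec2l* held under every processing tried. *Clec2d* was chosen for its rise in these libraries, so its direction was given in advance and its range is a description. *Clec2d* ran from 1.84 to 2.31 on the log2 scale over 7 other ways of processing and from 2.07 to 2.53 when 1 library was left out. *Clec2l* ran from 0.30 to 0.66 and from 0.51 to 0.62.

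**Figure D5:**
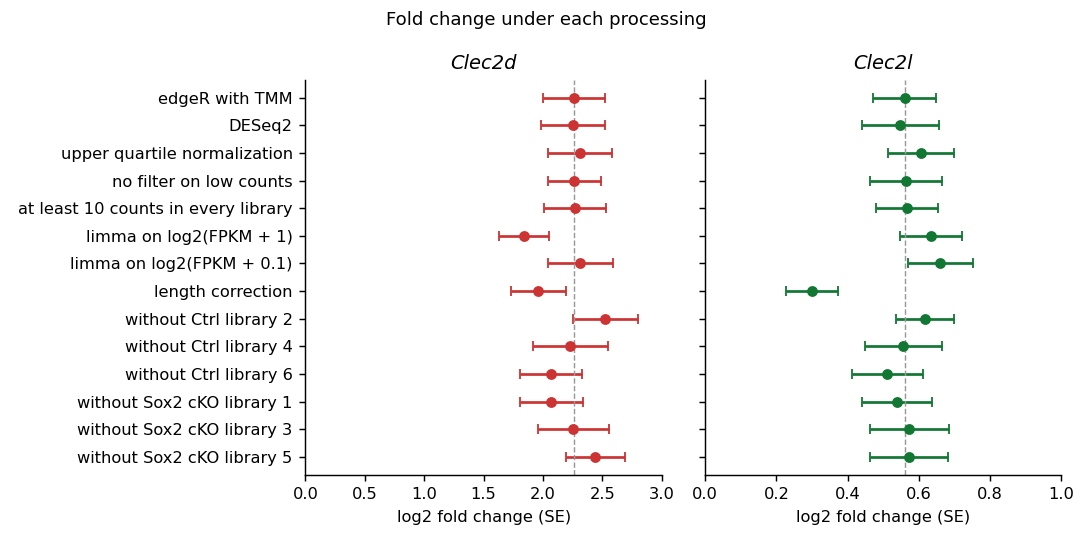
Log2 fold change with SE (x axes, on different scales) of *Clec2d* (left) and *Clec2l* (right) under each processing (y axis). The dashed line is the value from edgeR with TMM normalization, 2.26 and 0.56. The SE of the edgeR fits were derived from the F statistic, those of DESeq2 and limma come from the fits themselves. The length correction gives the lowest value of *Clec2l*, 0.30, and log2(FPKM + 1) the lowest of *Clec2d*, 1.84.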

How the data were processed

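Poly(A) RNA from spinal cord of 3 Ctrl and 3 *Sox2* cKO mice was made into libraries with a directional kit. The RNA integrity number was above 6.8 per the labels, while the methods of the study give a higher lower bound. Per the labels, the authors used CASAVA, STAR 2.5 and HTSeq 0.6.1 with mm10. The strand setting of the counting is not given in the sources used here. The authors deposited a table of read counts per Ensembl gene and a table of FPKM for the same 35275 genes, with 6 numbered columns each. Columns were put in groups by the numbering given for the mice. Of 1999 genes that the study lists with group means, 1999 matched those groups (relative tolerance 0.0001), and 0 would with the groups exchanged. Columns of fold changes and p-values in the study's own lists were not used.

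The counts were filtered (filterByExpr), TMM-normalized and tested with edgeR 4.0.16 (quasi-likelihood, no covariate, Benjamini-Hochberg over 16137 genes, threshold 0.05) in R 4.3.3. Alternatives were DESeq2 1.42.0, upper quartile normalization, no filter, at least 10 counts in every library, limma 3.58.1 on log2(FPKM + 1) and log2(FPKM + 0.1) for genes averaging 0.5 FPKM or more, a lowess length correction per library (span 0.3) and each library left out. For edgeR fits the SE is the absolute log2 fold change divided by the square root of the quasi-likelihood F statistic. DESeq2 and limma gave their own SE. The count script was tested on simulated data. Patterns were compared on centred log2(CPM + 0.1) for genes with a mean count of at least 50. Coding sequences were aligned with Biopython 1.88. Names and coordinates came from GENCODE M21 (34490 of 35275 IDs matched), promoters from RefSeq.

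*Clec2d*, *Clec2l* and all gene lists were chosen with earlier results of these data known. Named were both genes, all Clec2 and NKR-P1 genes, the nearest genes of the table on either side, the genes beside *Clec2d* by fold change, the 5 most alike to each, *Sox2*, and of each other list the 3 called genes with the largest change and the 2 of highest mean CPM. Chosen after their values were seen were *Ncr1*, *Gzmb*, *Prf1*, *Ccl5*, *Cd226*, *Xcl1*, *BC064078*, *Clec9a* and *Fmc1*. Some genes that this rule names are not reported here.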

Additional observations from a re-analysis of the deposited data

How the results depend on the processing

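No paired analysis was possible because the columns carry no replicate numbers of the labels. The log2 fold change of *Clec2d* was 1.84 with limma on log2(FPKM + 1) and 1.96 with the length correction. The first differed from 2.26 by more than 1 SD of log2 CPM among the *Sox2* cKO libraries (0.39), the second by less. *Clec2l* kept its call in the 7 other ways of processing and lost it without Ctrl library 4 (0.56) or *Sox2* cKO library 1 (0.54). With 3 libraries per group, calls rest on single libraries. With 1 library left out, 1962 genes called higher became 3 to 3030 and 2008 called lower became 5 to 3089, lowest without *Sox2* cKO library 1 (3 and 5), next without Ctrl library 4 (13 and 13), highest without Ctrl library 2 (3030 and 3089). Without Ctrl library 6 they were 602 and 480, and without *Sox2* cKO library 3 they were 698 and 661. Without *Sox2* cKO library 5 the genes called lower were 1336.

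With the length correction 981 genes were called higher and 1128 lower. In the lists it called 0 NK cell genes, 0 T and B cell genes, 0 spinal cord position genes and 0 astrocyte genes higher, 2 astrocyte genes and 1 neuron gene lower, and 8 interferon genes, 1 microglia gene and 1 other NK ligand higher. With limma at either pseudocount 7 interferon genes, 2 microglia genes and 4 neutrophil genes were called higher and 3 astrocyte genes and 1 neuron gene lower. Over all genes, 2670 were called higher and 915 lower with log2(FPKM + 1), and 2614 and 896 with log2(FPKM + 0.1). Lectins of the NK gene complex called higher numbered 0 with DESeq2, with at least 10 counts in every library and with both limma fits. *Klra2*, the gene concerned, had no adjusted p in DESeq2 and was below the filters of the others. The cause of the other changes was not tested. With single libraries left out, genes called higher ranged from 0 to 14 for interferon response, 0 to 8 for neutrophil, 0 to 5 for microglia, 0 to 5 for neuron, 0 to 3 for other NK ligands, 0 to 2 for position, and 0 to 1 for NK cell, T and B cell, NK complex lectin, astrocyte, oligodendrocyte and Toll-like receptor genes. Genes called lower ranged from 0 to 6 for astrocyte, 0 to 3 for neuron and 0 to 1 for Toll-like receptor genes. Depth limits the receptors and other Clec2 genes, most of which had few or 0 counts.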
